A study of Homo sapiens with 4 samples.

Results

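Alternative 5′ splice sites 12 to 200 nt apart were examined as pairs of annotated introns that end at the same 3′ splice site and begin at different 5′ splice sites. A pair was kept where both introns lay on the same chromosome and strand and each had at least 1 spliced read in any of 4 libraries. The rule gave 1184 pairs, which ended at 1058 shared 3′ splice sites in 953 genes and were made of 2205 introns, out of 209592 unique introns placed on the GENCODE 29 annotation, of which 118236 had a spliced read. The members were chosen by the spliced reads themselves, so that both sites are used somewhere in the data is not a finding. The quantity followed is the upstream share, the percentage of a pair's spliced reads that used the upstream 5′ splice site, that is, the site that leaves the shorter exon and removes the longer intron.

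The libraries were made from K562, an established line from chronic myeloid leukaemia, with 2 SF3B1 K700E samples and 2 SF3B1 wild-type (WT) samples. Per the labels, doxycycline at 1 µg/ml induced the modified allele and cells were collected after 4 days, and all samples share the line, the drug and the time. RNA bound to chromatin was taken in the presence of α-amanitin, an inhibitor of RNA polymerase II, stripped of polyadenylated and ribosomal RNA, and read as full-length cDNA on a PacBio instrument, so the reads are nascent transcripts rather than finished mRNA. The labels do not say whether the replicates came from separate cultures, whether a line was 1 clone or how much of the SF3B1 protein carries the substitution, so p-values below measure only the spread between these samples.

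SF3B1 is the largest subunit of SF3B, the part of the U2 small nuclear ribonucleoprotein that holds the branch point near the 3′ end of an intron, and K700E is a recurrent substitution in myelodysplastic syndromes known for altered choice of 3′ splice sites. A 5′ splice site is recognised first by U1 and then by U6 small nuclear RNA, which pair with the last exon bases and the first intron bases around an almost invariant GT. Alternative 5′ splice sites lengthen or shorten an exon at its end, and in coding exons the reading frame is kept only where the distance between the sites is a multiple of 3.

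The deposited counts per intron hold no base calls, so the K700E substitution could not be looked for in them. Junction reads summed over all placed introns were 215440 and 490150 in K700E replicates 1 and 2, and 812776 and 624520 in WT replicates 1 and 2, where a read that crosses several introns counts in each of them. The labels call the cells epithelial, whereas reads over introns of 9 erythroid marker genes summed to 805 and 2041 in K700E and 3003 and 4057 in WT. Most of them were in TFRC, with 730 and 1716 in K700E and 2816 and 3571 in WT. Reads over 9 epithelial marker genes summed to 27 and 94 in K700E and 95 and 58 in WT. In each of these lists 7 of the 9 genes were detected. KRT5 and CLDN4 of the epithelial list and KLF1 and EPOR of the erythroid list had no placed intron and could not be read. The 5 lymphoid markers summed to 687 and 1335 in K700E and 523 and 1019 in WT, nearly all of it in PTPRC.

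The sequences of sites that the results turn on are printed here. Each was read from GENCODE 29 transcripts (GRCh38/hg38) whose exon runs across the site, is written 5′ to 3′ on the strand of the gene, and has the first 6 intron bases of the upstream site in capitals after 3 exon bases in lower case. The first group gives the upstream site alone of pairs in the 5′ ends of genes: IARS1 at chr9:92293605-92293613 (minus strand), both upstream sites of FANCI at chr15:89244031-89244039 and chr15:89244042-89244050 (plus strand), TRMT11 at chr6:125986620-125986628 (plus strand) and MRE11 at chr11:94493785-94493793 (minus strand).
IARS1 upstream site: cagGTACGC
FANCI upstream site, 34 nt pair: gagGTGAGG
FANCI upstream site, 23 nt pair: gagGTGACT
TRMT11 upstream site: ccgGTGAGT
MRE11 upstream site: gagGCAAGT

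MRE11, a nuclease of DNA double-strand break repair, begins this intron with GC. The second group gives the whole stretch that the choice adds to the exon, from the upstream site to the last base before the downstream site. BIRC6 (chr2:32453940-32453954, plus), USP48 (chr1:21736430-21736448, minus) and ADGRV1 (chr5:90690956-90691041, plus) are shown because their K700E and WT samples did not overlap. BTAF1 (chr10:91959152-91959282, plus) is shown for the largest difference of any pair with enough reads, and POTEE (chr2:131223708-131223740, plus), COG4 (chr16:70519649-70519679, minus) and VPS13C (chr15:61954421-61954469, minus) because a single site took nearly all reads.
BIRC6, 12 nt: caaGTACGTttactg
USP48, 16 nt: tagGTAAAAcctttaagtt
ADGRV1, 83 nt: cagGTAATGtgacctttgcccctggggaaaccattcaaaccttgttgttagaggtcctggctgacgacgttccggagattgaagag
BTAF1, 128 nt: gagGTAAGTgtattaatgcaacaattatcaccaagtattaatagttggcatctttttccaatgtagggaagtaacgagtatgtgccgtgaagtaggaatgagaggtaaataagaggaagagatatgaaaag
POTEE, 30 nt: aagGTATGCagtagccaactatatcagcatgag
COG4, 28 nt: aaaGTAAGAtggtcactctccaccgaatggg
VPS13C, 46 nt: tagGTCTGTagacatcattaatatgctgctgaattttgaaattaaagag

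The commonest base at each place over 20122 such windows of introns with a spliced read gave cagGTAAGT, a sequence that 0.656% of the windows match in full. The upstream BTAF1 site, gagGTAAGT, matches it at 8 of 9 bases and had 39 of the 218 reads of its pair. Reads over its upstream intron were 18 and 22 in K700E and 53 and 38 in WT. The pair had 30 and 31 spliced reads in K700E and 86 and 71 in WT, so some may not have covered the upstream site, which was not tested. Of the 1076 upstream sites of pairs that could be read, 96.6% began the intron with GT and 3.44% with GC. Of the 396 readable downstream sites, 97.0% had GT and 3.03% GC. Over all readable introns with a spliced read these figures were 98.2% GT and 1.45% GC. The sites of pairs matched the commonest sequence at 5.84 of 9 bases on average upstream and 5.69 downstream, against 6.18 over all introns. The exon ended in CAG at 20.5% of upstream sites, 18.9% of downstream sites and 23.5% of all sites. Among 109 pairs with at least 20 spliced reads and both windows readable, 73 had sites that differed in the number of matches, and the site with more matches had more reads in 44 of them (60.3%). A window can be read only where an annotated exon runs over it, so the readable sites are not a random sample of all.

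Distances between the sites ran over the whole range allowed, with quartiles of 36.8, 77 and 133 nt. Pairs 12 to 30 nt apart numbered 239, those 31 to 100 nt apart 483 and those 101 to 200 nt apart 462. The lower limit follows from the reads: among pairs with at least 40 spliced reads, the counts at both sites were identical in 100% of those 4 to 7 nt apart, in 31.8% of those 8 to 11 nt apart and in 0% of those 12 to 200 nt apart. Sites with unlike counts may still share some reads, which was not tested. In CNOT1 (21 nt) spliced reads were 10 and 11 in K700E and 31 and 20 in WT. Reads over either intron were fewer, 8 and 10 in K700E and 30 and 19 in WT. USP48 (16 nt) had 11 and 28 spliced reads against 10 and 26 over either intron in K700E, but 46 and 25 against 47 and 28 in WT. Just outside the lower limit, MED15 (11 nt) had 44 upstream and 46 downstream reads in K700E replicate 1, 40 and 42 in K700E replicate 2, 21 and 24 in WT replicate 1 and 71 and 72 in WT replicate 2. Just inside it, BIRC6 (12 nt) had 14 and 1, 39 and 8, 110 and 31, and 45 and 13 in the same order. At the upper limit, TMCO1 (200 nt, inside) had 4 and 0, 13 and 1, 10 and 0, and 17 and 0, and CCNH (202 nt, outside) had 18 and 1, 92 and 8, 11 and 1, and 46 and 1.

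The distance was a multiple of 3 in 414 of the 1184 pairs (35.0%). It was so in 155 of the 300 pairs with both sites in coding sequence (51.7%), and in 124 of the 379 pairs with both sites in a 5′ UTR (32.7%). The share of the less used site, called here the minor share, was taken in pairs with at least 20 spliced reads over all libraries. Its median was 11.4% (quartiles 5.53 and 29.3%) in 59 coding pairs that keep the frame and 5.13% (quartiles 3.57 and 13.6%) in 50 coding pairs that shift it. In 5′ UTR pairs, where no frame is at stake, the median minor share was 18.9% in 43 pairs with a multiple of 3 and 16.7% in 60 pairs without. These are descriptions of annotated sites, and no test was made over members.

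Most pairs lay near the start of genes or in coding sequence. The upstream site was coding in 47.5% of the 1184 pairs, in a 5′ UTR in 428 pairs, in a noncoding transcript in 155 and in a 3′ UTR in 39, and it began the first intron of its transcript in 574 (48.5%). A single annotated exon ran over both sites in 1058 pairs. In the other 126 the sites belong to exons that no annotated exon joins. They include ADGRV1 (175 nt), ARL15, FAM135A, NUP214, SF3B1 and UBR2. Such a pair may also reflect a choice of first exon or of exon. Pairs with a spanning exon may do so too, which was not tested. In SUGP2, reads over the upstream intron were 0 and 4 in K700E and 10 and 10 in WT. Over its downstream intron they were 11 and 29 in K700E and 20 and 51 in WT. BTAF1, IARS1, MARCHF7, MRE11 and NMD3 (78 nt) also had fewer reads over the upstream intron in every sample. Reads were few in most pairs: the quartiles of spliced reads over all libraries were 5, 11 and 25, the largest number was 868 in ADGRV1, and 530 pairs had fewer than 10.

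Among the 386 pairs with at least 20 spliced reads, use was lopsided in most. The minor share was under 5% in 130 pairs and 20% or more in 109. Upstream and downstream sites each could be the main one: the upstream share was 95% or more in 80 pairs and under 5% in 59.

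**Figure D1:**
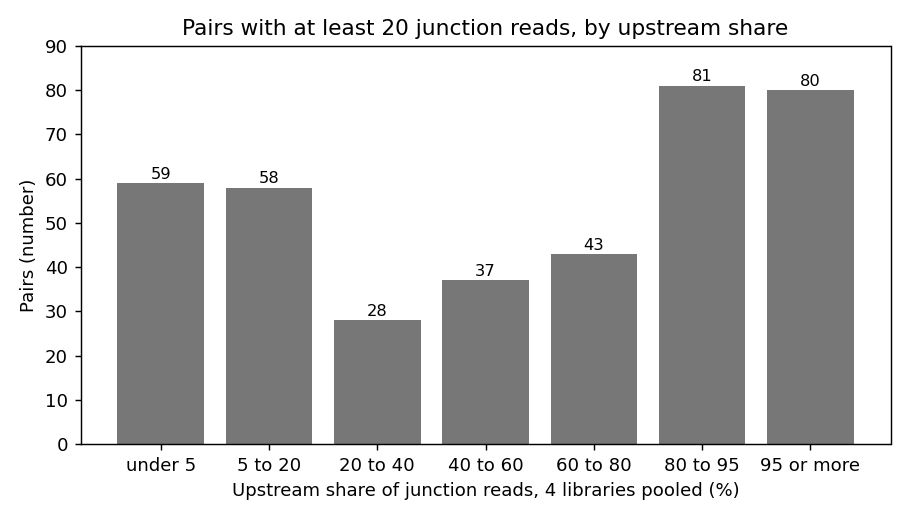
Number of pairs (vertical axis) by upstream share of spliced reads pooled over the 4 libraries (horizontal axis, %), for the 386 pairs with at least 20 spliced reads. The bars are high toward both ends, with 81 pairs at 80 to 95%, 80 at 95% or more, 59 under 5% and 58 at 5 to 20%, and lowest with 28 pairs at 20 to 40%.

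Which site was the main one followed the annotation of protein-coding transcripts. In 397 pairs only 1 of the sites occurs in a transcript annotated as protein-coding. That site took 83.2% and 83.9% of the spliced reads in K700E replicates 1 and 2, and 84.7% and 85.1% in WT replicates 1 and 2. Both K700E values were below both WT values, with 95% Wilson intervals of 80.9 to 85.2% and 82.4 to 85.3% in K700E and 83.6 to 85.8% and 83.9 to 86.2% in WT that overlap. Because amplified reads carry no molecular identifiers, intervals here cover counting error only, and they treat a read that counts in several pairs as separate reads. Counted by pairs, the site in protein-coding transcripts had more reads in 330 of the 397, the other site in 34, and 33 were equal. Of 13 such pairs deep enough for the test below, 3 had more reads at the other site. In BTAF1 the downstream site occurs only in a transcript without annotated coding sequence and had 179 of 218 reads. In MARCHF7 such a downstream site had 79 reads against 57 upstream. In the 83 nt pair of ADGRV1 the upstream site occurs only in transcripts annotated for nonsense-mediated decay and had 166 of 207 reads.

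**Figure D2:**
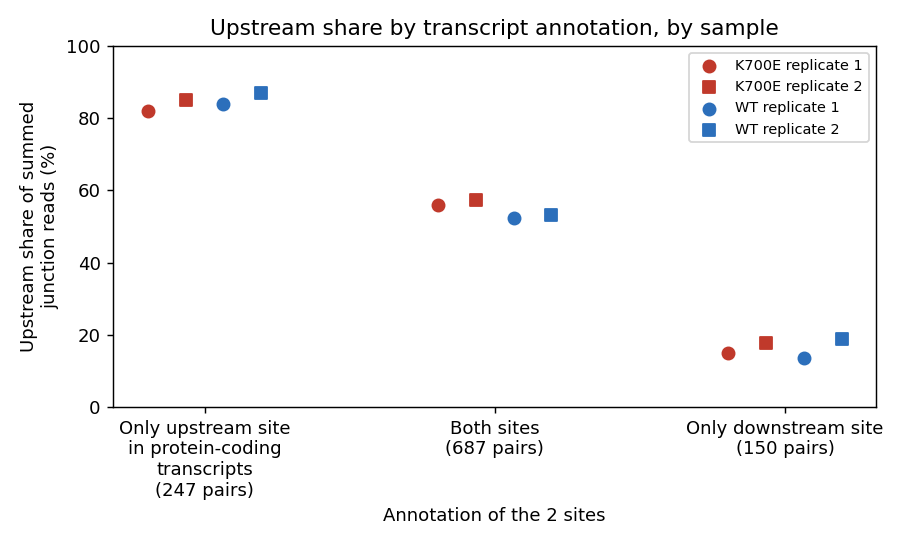
Upstream share of summed spliced reads (vertical axis, %) in each K700E and WT sample, for pairs in which only the upstream site (247 pairs), both sites (687 pairs) or only the downstream site (150 pairs) occurs in protein-coding transcripts. All 4 samples lie between 82.0 and 87.1% in the first class and between 13.6 and 18.7% in the last.

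Over all members, the upstream site took 1671 of 2946 spliced reads in K700E replicate 1 (56.7%) and 4022 of 6979 in K700E replicate 2 (57.6%). It took 4402 of 8025 in WT replicate 1 (54.9%) and 5170 of 9073 in WT replicate 2 (57.0%). The groups overlapped, with an exact two-sided permutation p of 0.667, and 2 samples against 2 cannot give a p below 0.333. The sums can count a read in more than 1 pair, since 204 of the 1184 pairs (17.2%) share their 3′ splice site with another pair. They also weight a pair by its reads. ADGRV1, an adhesion receptor gene of many exons that holds the 868-read pair, moves them most: without its 2 pairs the upstream share was 55.2% and 56.9% in K700E and 53.2% and 54.8% in WT, which do not overlap. With the IARS1 pair left out as well it was 55.3% and 56.9% in K700E and 53.3% and 55.4% in WT, which overlap.

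The same held within some classes of pairs and not in others. Where both sites occur in protein-coding transcripts, the summed upstream share was 55.9% and 57.3% in K700E and 52.4% and 53.1% in WT, and without IARS1, the pair with the second largest number of reads, it was 56.1% and 57.3% in K700E and 52.7% and 54.0% in WT. In first introns it was 58.0% and 61.4% in K700E and 54.1% and 55.5% in WT. Later introns overlapped, at 55.5% and 53.2% in K700E and 55.2% and 58.3% in WT. Pairs with a 5′ UTR upstream site had 57.1% and 60.1% in K700E and 55.2% and 55.9% in WT, but without IARS1 they overlapped, at 57.6% and 60.3% in K700E and 56.2% and 57.7% in WT. The classes were picked for mention after their values were seen and are not tested.

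Change between genotypes was tested pair by pair in pairs with at least 10 spliced reads over both sites in every sample. Of the 1184 pairs, 32 in 28 genes met this, and they were fitted together with 42 pairs of alternative 3′ splice sites at the same distances. With edgeR's quasi-likelihood test no pair passed a false discovery rate of 0.05 (0% of 32, and 0% of all 74). Before adjustment 1 pair was under 0.05 (3.12% of 32, and 1.35% of all 74), and that pair was in IARS1. DESeq2 had 0 pairs under 0.05 before adjustment and limma 1, and neither passed any pair after it. The limma pair was that of SF3B1, with an unadjusted p of 0.0490. IARS1 had an unadjusted p of 0.378 in DESeq2, 0.362 in limma and 0.126 in edgeR with the replicate number as a block. Of the 32 pairs, 31 are described below so that tested members are accounted for, and 11 of them are outside the rule for named pairs.

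The middle of the differences lay close to 0. The upstream share, K700E minus WT, had a median of 0.670 percentage points over the 32 pairs, with quartiles of -2.95 and 3.78, and it was above 0 in 18 and below 0 in 14. The 42 alternative 3′ pairs had a median of 0.869 points. Averaged over the 32 pairs, the upstream share was 55.6% and 57.0% in K700E and 56.0% and 55.9% in WT, a difference of 0.337 points (exact permutation p = 1.00, two-sided). Both K700E samples were above both WT samples in 4 pairs (12.5% of 32, against 8.11% of all 74 pairs fitted), and below both in 4 pairs (12.5% of 32, against 12.2% of all 74).

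**Figure D3:**
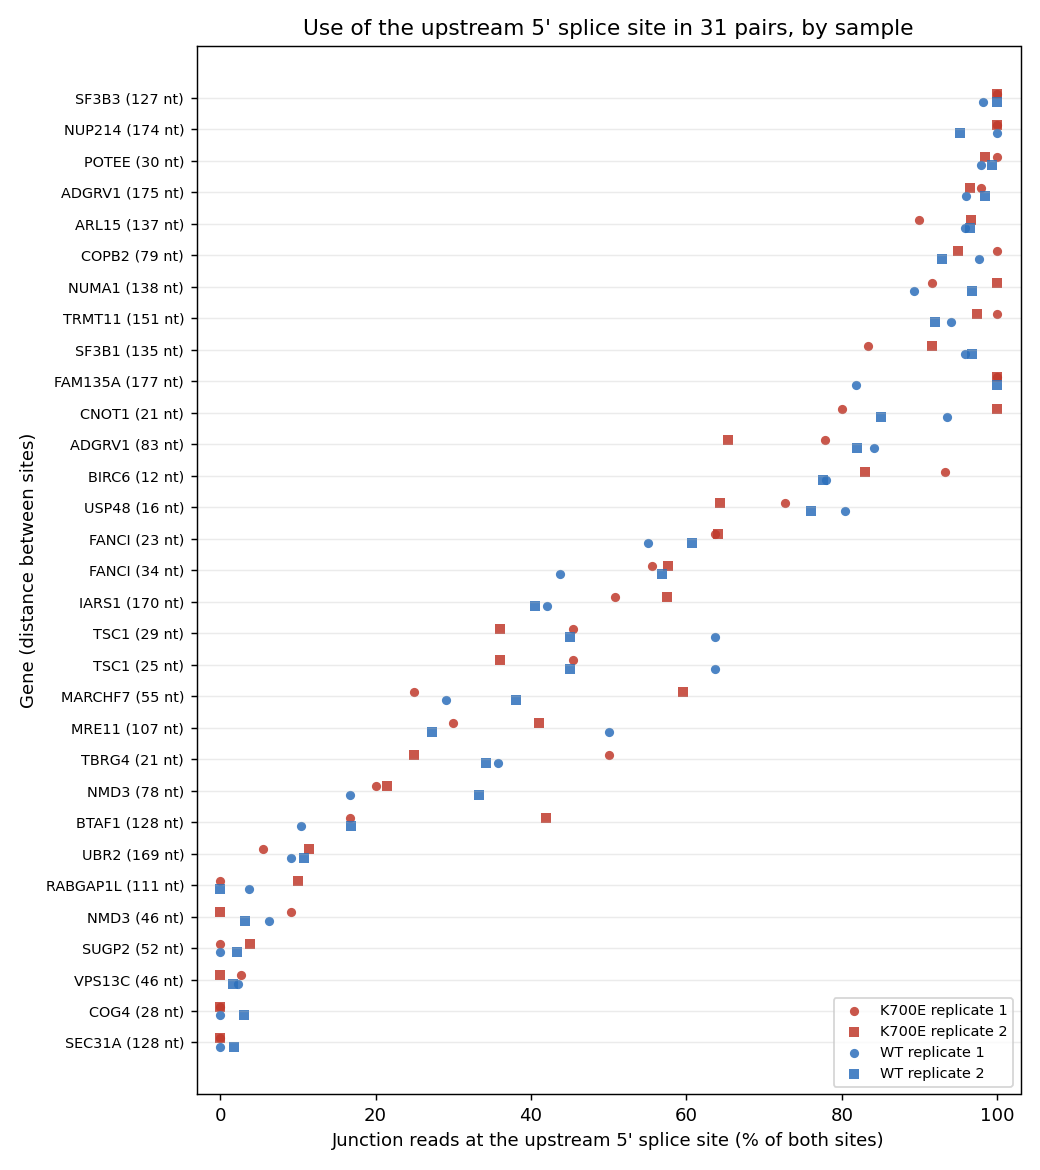
Upstream share (horizontal axis, % of spliced reads of the pair) in 2 K700E and 2 WT samples for 31 of the 32 pairs with at least 10 spliced reads in every sample, sorted by their pooled share. Samples of both genotypes lie close together in most pairs, and IARS1, at 50.8 and 57.5% in K700E against 42.1 and 40.5% in WT, is the best sequenced pair near 50% whose groups do not overlap.

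IARS1, the cytosolic isoleucyl-tRNA synthetase, had the smallest p. Its sites lie 170 nt apart in the 5′ UTR and give introns chr9:92289427-92293610 (upstream) and chr9:92289427-92293440 (downstream), the first intron of the gene on the minus strand. The upstream site had 33 of 65 reads in K700E replicate 1 (50.8%), 69 of 120 in K700E replicate 2 (57.5%), 48 of 114 in WT replicate 1 (42.1%) and 137 of 338 in WT replicate 2 (40.5%). Both K700E samples were above both WT samples. The mean was 54.1 ± 4.76% in K700E and 41.3 ± 1.11% in WT (SD, n = 2 each), a difference of 12.8 points. The log2 odds ratio was 0.83 ± 0.32 (standard error), with an edgeR p of 0.0108 and an adjusted p of 0.796 over all 74 pairs. More than 50% of reads used the upstream site in each K700E sample and the downstream site in each WT sample. This difference did not pass the adjustment. K700E replicate 1 had 33 upstream and 32 downstream reads. Wilson intervals of the upstream share were 38.9 to 62.5% and 48.6 to 66.0% in K700E, and 33.4 to 51.3% and 35.4 to 45.8% in WT. Only the interval of WT replicate 2 left out 50%, so the main site of the other samples is not settled.

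Each IARS1 intron taken alone gives the mirror of this from the same reads, so it is not a second result. The share of reads over the intron that were spliced at the upstream site was 51.6% and 58.0% in K700E and 49.5% and 41.4% in WT, and at the downstream site 48.5% and 42.1% in K700E and 57.9% and 58.9% in WT. Spliced reads at both sites together, 65 and 120 in K700E and 114 and 338 in WT, were more than the reads over the longer intron, 64 and 119 in K700E and 97 and 331 in WT.

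BIRC6, FANCI and TRMT11 were the other genes with a higher upstream share in both K700E samples, each with an edgeR adjusted p of 0.983. BIRC6, a giant ubiquitin-conjugating enzyme that inhibits apoptosis, has its sites 12 nt apart in intron 23 of 73, inside coding sequence. Its upstream share was 93.3% of 15 reads and 83.0% of 47 in K700E, and 78.0% of 141 and 77.6% of 58 in WT, a difference of 10.4 points (log2 odds ratio 0.73 ± 0.73). FANCI, a DNA crosslink repair protein of the Fanconi anaemia pathway, has 3 sites in its 5′ UTR. For the 23 nt pair the upstream share was 63.6% of 22 reads and 64.1% of 39 in K700E, and 55.0% of 40 and 60.7% of 56 in WT, a difference of 6.01 points (log2 odds ratio 0.34 ± 0.68).

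The 34 nt pair of FANCI shares that downstream site, and its upstream site lies 11 nt from the other upstream site, where reads are not fully resolved. It had 55.6% of 18 reads and 57.6% of 33 in K700E, and 43.8% of 32 and 56.9% of 51 in WT. K700E replicate 1 lay between the WT samples there. TRMT11, a subunit of a tRNA methyltransferase, used the upstream of 2 sites 151 nt apart in 10 of 10 reads and 38 of 39 (97.4%) in K700E, and in 16 of 17 (94.1%) and 23 of 25 (92.0%) in WT. The downstream site had only 4 reads in all. No downstream read among 10 allows a share of up to 30% in K700E replicate 1.

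ADGRV1, SF3B1 and USP48 were among the genes with a lower upstream share in both K700E samples, each with an edgeR adjusted p of 0.983. In the 83 nt pair of ADGRV1 the upstream site had 77.8% of 18 reads and 65.4% of 26 in K700E, and 84.1% of 63 and 82.0% of 100 in WT, a difference of -11.5 points (log2 odds ratio -1.01 ± 0.82). The distance shifts the reading frame. The deeper ADGRV1 pair, 175 nt apart, had 98.0% of 98 reads and 96.5% of 115 in K700E, and 96.0% of 273 and 98.4% of 382 in WT, and its groups overlapped. No annotated exon spans both sites of this deeper pair.

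USP48, a deubiquitinase, has sites 16 nt apart in coding sequence, a distance that shifts the frame. Its upstream share was 72.7% of 11 reads and 64.3% of 28 in K700E, and 80.4% of 46 and 76.0% of 25 in WT, a difference of -9.71 points (log2 odds ratio -0.89 ± 0.80). Spliced reads outnumbered the reads over either intron in both K700E samples, so a read may count at both sites, which was not tested.

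SF3B1 itself, the gene under study, was a tested member. Its introns of this pair end at chr2:197402131 on the minus strand and begin 135 nt apart, the upstream at intron 14 of 24 in the coding transcript and the downstream in a noncoding transcript. The upstream site had 10 of 12 reads (83.3%) and 11 of 12 (91.7%) in K700E, and 114 of 119 (95.8%) and 30 of 31 (96.8%) in WT, a difference of -8.79 points (log2 odds ratio -1.77 ± 1.60). The downstream site had 3 reads over both K700E samples and 6 over both WT samples. No annotated exon spans both sites. Reads from the native and the induced allele are not told apart in these tables.

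**Figure D4:**
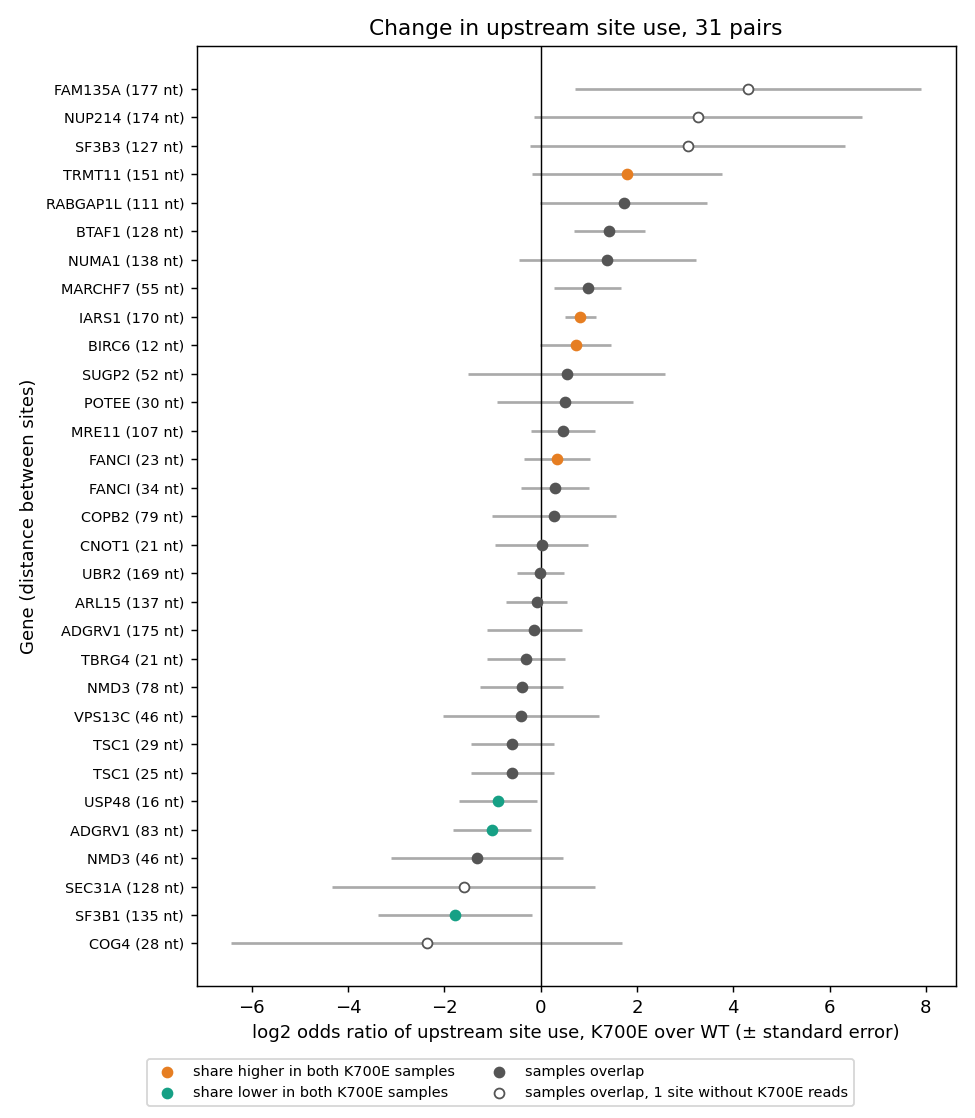
Log2 odds ratio of upstream site use, K700E over WT, with its standard error (horizontal axis) for 31 of the 32 pairs (vertical axis). The bars of most pairs cross 0, IARS1 has the shortest bar at 0.83 ± 0.32, and open circles mark 5 pairs in which 1 site had no read in either K700E sample, so that their values depend on how the fit treats zeros and are no measure of size.

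BTAF1 and MARCHF7 had large differences that rest on K700E replicate 2. BTAF1, an ATPase that removes the TATA-binding protein from promoters, had an upstream share of 16.7% of 30 reads and 41.9% of 31 in K700E, and 10.5% of 86 and 16.9% of 71 in WT. The means were 29.3 ± 17.9% in K700E and 13.7 ± 4.55% in WT (SD, n = 2 each), a difference of 15.6 points. The log2 odds ratio was 1.43 ± 0.74, with an edgeR p of 0.0540 and an adjusted p of 0.983. Without K700E replicate 2 the difference was 2.98 points. Whether all reads of the BTAF1 pair covered its upstream site was not tested. MARCHF7, a membrane-associated RING-type ubiquitin ligase, had 25.0% of 16 reads and 59.6% of 47 in K700E, and 29% of 31 and 38.1% of 42 in WT, and without K700E replicate 2 its difference was -8.56 points.

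TSC1, the hamartin tumour suppressor, has 2 member pairs 25 and 29 nt apart that share the upstream site. Their downstream sites lie 4 nt apart and had identical counts, so they are a single measurement. The upstream share was 45.5% of 11 reads and 36.0% of 25 in K700E, and 63.6% of 11 and 45% of 40 in WT, a difference of -13.6 points, and K700E replicate 1 overlapped WT replicate 2. Other 5′ UTR pairs overlapped too. MRE11, whose upstream site has the GC, used it in 30% of 10 reads and 41.0% of 39 in K700E, and in 50% of 12 and 27.3% of 55 in WT. Its difference of the means, -3.12 points, and its log2 odds ratio, 0.47 ± 0.67, have opposite signs. The difference gives each sample the same weight, and the odds ratio weights samples by their reads.

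TBRG4, a mitochondrial RNA-binding protein of the FASTK family, had 50% of 10 reads and 25.0% of 40 in K700E, and 35.7% of 14 and 34.2% of 38 in WT, again with opposite signs of the difference (2.54 points) and the log2 odds ratio (-0.31 ± 0.81). The 78 nt pair of NMD3, the export adaptor of the large ribosomal subunit, had 20% of 10 reads and 21.4% of 42 in K700E, and 16.7% of 24 and 33.3% of 30 in WT. Its 46 nt pair used the upstream site in 1 of 11 reads and 0 of 43 in K700E, and in 2 of 32 and 1 of 31 in WT. The groups of all these pairs overlapped.

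In 8 further pairs the upstream site was the main one in every sample and the groups overlapped. No annotated exon spans both sites of ARL15, FAM135A or NUP214, so these may also reflect a choice of exon, which was not tested. ARL15, a small GTPase, had 90% of 10 reads and 96.6% of 59 in K700E, and 95.8% of 24 and 96.6% of 29 in WT. CNOT1, the scaffold of the CCR4-NOT deadenylase, had 80% of 10 and 100% of 11 in K700E, and 93.5% of 31 and 85% of 20 in WT. CNOT1 had more spliced reads than reads over either intron in every sample, so its share is uncertain. COPB2, a coatomer subunit of Golgi vesicles, had 100% of 22 and 94.9% of 59 in K700E, and 97.7% of 86 and 92.9% of 70 in WT. The downstream site was thus the minor one in these genes in both genotypes.

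NUMA1, a spindle pole protein, had 91.7% of 12 reads and 100% of 38 in K700E, and 89.3% of 28 and 96.8% of 62 in WT. FAM135A had 100% of 13 and 100% of 18 in K700E, and 81.8% of 22 and 100% of 21 in WT, so all 4 of its downstream reads came from WT replicate 1. NUP214, a nuclear pore protein, had 100% of 13 and 100% of 35 in K700E, and 100% of 18 and 95.2% of 21 in WT. For these 2 genes the absence of downstream reads in K700E allows shares of up to 23.1% and 16.7% in FAM135A and up to 23.1% and 8.57% in NUP214.

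SF3B3, another SF3B subunit, used the upstream site in 39 of 39 reads and 112 of 112 in K700E, and in 55 of 56 and 84 of 84 in WT. POTEE, a primate POTE-family gene with close paralogs, had 100% of 37 and 98.4% of 64 in K700E, and 97.9% of 234 and 99.3% of 153 in WT. Reads of POTEE could belong to a paralog, so its values are uncertain. SF3B3 gave the tightest limit of the 32 pairs: 0 downstream reads among 112 in K700E replicate 2 allow a share of up to 2.68%.

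In the other pairs the downstream site was the main one throughout. COG4, a Golgi tethering subunit, had 0 upstream reads of 10 and 0 of 21 in K700E, and 0 of 14 and 1 of 33 in WT. SEC31A, a COPII coat protein, had 0 of 11 and 0 of 31 in K700E, and 0 of 52 and 1 of 55 in WT. SUGP2, a nuclear protein with SURP and G-patch domains, had 0 of 11 and 1 of 26 in K700E, and 0 of 15 and 1 of 45 in WT. Few SUGP2 reads counted over the upstream intron, so its share may not reflect a choice between the sites. A change of a few percentage points at sites so rarely read was not detectable at this depth: the zeros in K700E allow upstream shares of up to 30% and 14.3% in COG4 and up to 27.3% and 9.68% in SEC31A.

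RABGAP1L, a Rab GTPase-activating protein, had 0 of 10 and 3 of 30 in K700E, and 1 of 27 and 0 of 25 in WT. VPS13C, a lipid transfer protein, had 1 of 37 and 0 of 32 in K700E, and 3 of 132 and 1 of 61 in WT. UBR2, a ubiquitin ligase of the N-degron pathway, had 1 of 18 (5.56%) and 4 of 35 (11.4%) in K700E, and 9 of 99 (9.09%) and 4 of 37 (10.8%) in WT. No annotated exon spans both UBR2 sites, so its share may also reflect a choice of exon, which was not tested. The upstream sites of COG4 and VPS13C, printed above, both begin with GT and were rarely used in either genotype.

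The filter leaves out 1152 pairs. With at least 5 reads in every sample, 124 pairs could be fitted, with a median difference of 1.04 points. Both K700E samples were above both WT samples in 20 of them (16.1%, against 13.9% of all 245 pairs of both kinds at this filter) and below in 11 (8.87%, against 12.7%). None passed the adjusted threshold in edgeR (0%), and 2 were under 0.05 before adjustment (1.61%, against 3.67% of all 245), IARS1 and FANCD2. FANCD2, which is monoubiquitinated together with FANCI, had 4 upstream and 3 downstream reads in K700E replicate 1 and 46 and 11 in K700E replicate 2, against 11 and 9 in WT replicate 1 and 9 and 8 in WT replicate 2. The untested pairs with the most reads were those of HUWE1, SEC31A (137 nt) and GALK2, with 145, 138 and 136 reads in all. In HUWE1, a large ubiquitin ligase, the upstream site had 3 of 6 reads and 1 of 24 in K700E, and 6 of 48 and 3 of 67 in WT.

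Members were also looked up in lists of genes. The share of all genes that hold a pair was not taken, so these counts do not show whether a list holds few or many. Of 28 genes of 5′ splice site recognition, 2 had a pair, among them TIA1. TIA1, which helps U1 bind weak sites, had 1 upstream and 1 downstream read in K700E replicate 1, 6 and 2 in K700E replicate 2, 6 and 3 in WT replicate 1 and 11 and 3 in WT replicate 2. Of 50 splicing regulators, 7 had 12 pairs between them (CCNL1, HNRNPC, HNRNPH1, HNRNPH3, HNRNPU, RBM5 and SRSF5), none with enough reads for the test. In CCNL1, a cyclin of splicing speckles named after its values were seen, the downstream site had 0 of 1 and 0 of 6 reads in K700E, and 7 of 17 and 6 of 12 in WT. The 4 libraries of RBM5, an RNA-binding tumour suppressor, had 0 of 3 and 0 of 12 upstream reads in K700E, and 0 of 15 and 1 of 16 in WT.

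In HNRNPC the upstream site had 5 of 5 reads and 15 of 22 in K700E, and 8 of 10 and 14 of 18 in WT. Of 30 erythroid and iron genes, 3 had 4 pairs, among them FECH and UROD, both enzymes of haem synthesis. UROD had 0 reads and 2 of 4 upstream reads in K700E, and 5 of 12 and 4 of 9 in WT. Of 20 host genes of small nucleolar RNAs, 7 had 8 pairs (GAS5, NOP56, RACK1, SNHG12, SNHG14, SNHG17 and ZFAS1), and the deepest, RACK1 at 12 nt, used the upstream site in 2 of 2 and 18 of 20 reads in K700E, and in 10 of 10 and 9 of 10 in WT. No pair of the last 3 lists was tested. BCL2L1, a textbook case of alternative 5′ splice sites, was not a member: its sites lie 189 nt apart, and the upstream site had 0 spliced reads in all 4 samples, against 3 and 1 at the downstream site in K700E and 3 and 5 in WT.

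How much of the RNA had been spliced was measured as reads with the junction over all reads across the intron. Of the introns that make up the pairs, 130 had at least 10 reads in every sample. None passed a false discovery rate of 0.05 in edgeR (0% of 130), and 2 were under 0.05 before adjustment (1.54%). Among them was the downstream IARS1 intron, whose reads are those of the IARS1 pair above. DESeq2 also passed none and had 0 under 0.05 before adjustment. Over all 5093 introns tested 5 passed (0.0982%), 3 of them lower in K700E (0.0589%) and 2 higher (0.0393%), and 165 were under 0.05 before adjustment (3.24%). The median difference was 0.0610 points over the 130 introns and -1.67 points over all introns tested, and the difference between these sets was not tested. A read spliced at the other site of a pair counts here as unspliced, so the 2 introns of a pair can move in opposite directions. Of the 130 introns, 65 were higher and 65 lower in K700E. Their median is therefore no measure of how much RNA was spliced to set against that of all introns.

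Summing both sites of a pair over the reads across the longer intron gives the efficiency of the pair. Over 61 pairs with enough reads it averaged 62.7% and 62.3% in K700E and 61.9% and 63.4% in WT, a difference of -0.165 points (exact permutation p = 1.00, two-sided). In 25 of the 244 values the spliced reads outnumbered the reads across the longer intron and were set to 100%. Of the pairs tested for the upstream share, BTAF1, CNOT1, COPB2, MARCHF7 and MRE11 were among those at 100% in all 4 samples. A value of 100% need not mean that all RNA was spliced. MARCHF7 had 16 and 47 spliced reads in K700E and 31 and 42 in WT. Reads over its longer intron were 12 and 44 in K700E and 20 and 37 in WT. Over its shorter intron they were 18 and 49 in K700E and 37 and 43 in WT. SF3B1 was at 85.7% and 80% in K700E and 71.7% and 77.5% in WT.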

How the data were processed

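Per the labels' protocols, RNA 3′ ends were ligated to an adapter and cDNA was amplified by PCR without stated molecular identifiers. Per the submitters' processing notes, cutadapt, minimap2 and hg38 were used; tool versions and the rule that tied a read to an intron are not given in sources used here. The authors deposited, per annotated intron, a count of reads over it and a count of reads with its junction, not normalized, and their ratio, which was not used further. The counts, but not the ratio, enter every result. The deposited RNA 3′ end position table was not used. Inside the K700E tables the replicates bear other numbers than in their titles, and files were assigned as the series records do.

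Rows were placed on GENCODE 29 by transcript without its version, index of the intron, first base and strand. Between 87.3 and 87.6% of rows could be placed. An intron listed for several transcripts was counted once, with the highest count where they disagreed (103 to 142 introns per sample). Junction reads at both sites were tested with edgeR 4.0.16 in R 4.3.3 (glmQLFit, dispersion 0, robust shrinkage), with 1 coefficient per sample, site and site by genotype, in pairs with at least 10 junction reads in every sample, and Benjamini-Hochberg adjustment over all 74 pairs. Intron efficiency used the same model on spliced and unspliced reads, where unspliced reads are all reads over the intron without its own junction. DESeq2 1.42.0 and limma 3.58.1 (0.5 added to each count) were alternatives. The main fits were also run on simulated counts with set changes larger than that of IARS1. That run does not show whether a change of the size seen in IARS1 would be found. Wilson intervals are at 95%, and a share of 0 is limited at 3 counts. Named pairs were those with the 8 smallest p in each direction, the 10 with most reads and those of 5′ splice site factors. Up to 6 nearest 50% use were also named among pairs with at least 50 junction reads in every sample. Only IARS1 and ADGRV1 (175 nt) had that many reads. The members, lists and rules were chosen with earlier results of these data known. Results of some genes are not reported here.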

Additional observations from a re-analysis of the deposited data

How the results depend on the processing

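No pair passed the adjusted threshold for the upstream share under any of 17 other settings, and no member intron did for splicing efficiency under any of 9. The difference in share of a single pair moved only where a sample was left out, since other settings change the test and not the shares, and 24 of 123 such values reversed, in 16 pairs. The median difference in upstream share (0.670 points) was 1.54 with at least 20 reads in every sample and -0.293 to 0.901 when samples were left out in turn, negative without WT replicate 1. The mean difference (0.337 points) was -0.484 when pairs were weighted by reads, and -0.234 to 1.83 when samples were left out, negative without K700E replicate 1 or WT replicate 1. It was 2.00 points with at least 5 reads and 4.70 with at least 20. The difference in pair efficiency (-0.165 points) was 0.0474 with the larger of the read numbers over either intron, a setting chosen after seeing the data, -3.57 with at least 20 reads, and -1.61 to 1.09 when samples were left out, positive without WT replicate 2. The cause of these reversals was not tested.

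With samples left out in turn, the difference in upstream share ran from -1.19 to 1.27 points in ADGRV1 (175 nt), -6.19 to 0.418 in ARL15, -9.27 to 10.7 in CNOT1, -0.351 to 4.73 in COPB2 and -0.297 to 12.8 in FANCI (34 nt). It ran from -8.56 to 26 in MARCHF7, -14.5 to 8.24 in MRE11, -4.74 to 4.35 in NMD3 (46 nt), -12.6 to 4.05 in NMD3 (78 nt) and -1.36 to 6.97 in NUMA1. It ran from -0.167 to 1.40 in POTEE, -1.85 to 8.15 in RABGAP1L, -1.11 to 2.74 in SUGP2, -9.96 to 15.0 in TBRG4, -4.40 to 1.48 in UBR2 and -1.96 to 0.747 in VPS13C. IARS1 lay between 9.45 and 16.2 points, and in it and the other 7 pairs whose groups do not overlap the direction is fixed by that separation.

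Samples with the same replicate number deviated together only weakly (correlation 0.215 over the 32 pairs), and with 2 pairs of samples the numbers are not taken as a pairing. With the replicate block 0 pairs passed. A pair's mean difference is the same with and without pairing, so the paired median was taken over the single differences within each replicate number, and was 0.0292 points. Restricting pairs to those with a spanning exon, also chosen after seeing the data, gave a median of 0.769 points.

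Depth limits most of these statements: 32 of 1184 pairs had enough reads. Summed over all pairs, spliced reads were 2946 in K700E replicate 1 against 9073 in WT replicate 2. Leaving out a sample leaves 1 in its group, which is then assumed to vary like the others.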
